A study of Homo sapiens with 3 samples.

Results

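Ribosomal protein genes encode the protein components of the cytoplasmic ribosome. Here they were taken as the autosomal protein-coding genes of GENCODE on GRCh37 whose symbol is RPL or RPS followed by digits, with an A, X or L at most behind them, together with RPSA, RPLP0, RPLP1 and RPLP2. The rule gave 77 genes of 18893 autosomal protein-coding genes, 46 of them for the large subunit and 31 for the small subunit. The rule uses names and no measured value, though it was set with earlier results of these data known. Each was set against the Fra-1 and the Fra-2 peaks whose centre lay within 1 kb, 10 kb or 100 kb of a transcription start site (TSS) of one of its protein-coding transcripts.

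The peaks come from chromatin immunoprecipitation with sequencing (ChIP-seq), which maps where a protein sits on DNA. The cells were MDA-MB-231, an established line from a triple-negative breast tumour of the basal B type, grown in serum and not otherwise treated according to the labels. The Fra-1 group was precipitated with an antibody to Fra-1 and the Fra-2 group with an antibody to Fra-2, and the input group of unprecipitated DNA was not analysed here. According to the labels each was done as 2 independent experiments, but a single peak list per antibody was at hand, so no value has a spread between replicates and no difference between the factors was tested.

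Fra-1 and Fra-2 are Fos family proteins that bind DNA in pairs with Jun proteins, as the factor AP-1, at the element TGACTCA or its reverse complement TGAGTCA. Ribosomal protein genes are among the most strongly and evenly transcribed genes of growing cells. Their messages usually start with a C followed by a run of pyrimidines, the TOP motif, through which the mTOR pathway and the protein LARP1 control their translation. AP-1 is best known for genes of invasion, matrix and inflammation, so this gene family gives a picture of the factors at housekeeping genes.

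The lists held 9998 Fra-1 peaks and 13003 Fra-2 peaks, and in each the median peak was 150 bp wide and the narrowest 100 bp. Of these, 9679 and 12695 lay on autosomes. The lists carry no height or score, and the read depth behind them is unknown. The intervals given for shares are 95% exact binomial (Clopper-Pearson), cover counting error only and treat neighbouring genes or peaks as independent.

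Peaks within 1 kb of a start site were few at ribosomal protein genes, as they were over all genes. Fra-1 was there at 1.3% against 1.92% of all genes, and Fra-2 at 5.19% against 3.76%. Sequence at 4 of the 5 peaks within 1 kb of a start site is shown first. These peaks carry most of what can be said about binding at the genes themselves. The RPLP0 stretch lies beyond the bounds of its peak, around the element nearby. The stretches are on the plus strand of GRCh37. Capitals mark the AP-1 element, and a stretch without capitals is the centre of a peak with no element within 100 bp. Stretches that touch an untranslated exon are cut short.
RPS7, Fra-2, chr2:3622721-3622781: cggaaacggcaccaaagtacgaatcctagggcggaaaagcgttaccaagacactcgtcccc
RPS29, Fra-2, chr14:50053188-50053214: gttgtttcgctgggtgagtaaaatgaa
RPL18, Fra-2, chr19:49122638-49122664: tctctggccctacccaggccgtgttct
RPLP0, Fra-1, chr12:120637922-120637948: ttccttacaaTGAGTCAttcctgacct

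The next stretches lie 1 to 10 kb from a start site and are shown for comparison. Those of RPS16 and RPL3 come from the peaks found in both lists. Those of RPL13, RPL5 and RPL27 have sequence that recurs in the genome, with 16-base words at a median of 129.5, 99.5 and 189.5 places. The words of the RPL39L stretch occurred at a median of 7 places, but at up to 11684.
RPS16, both lists, chr19:39921439-39921485: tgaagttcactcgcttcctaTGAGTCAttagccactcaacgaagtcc
RPL3, both lists, chr22:39704938-39705033: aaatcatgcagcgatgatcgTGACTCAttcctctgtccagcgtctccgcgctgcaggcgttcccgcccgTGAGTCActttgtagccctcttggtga
RPL39L, Fra-1, chr3:186854910-186854967: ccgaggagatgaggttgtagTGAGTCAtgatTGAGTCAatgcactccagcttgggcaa
RPL29, Fra-2, chr3:52032117-52032163: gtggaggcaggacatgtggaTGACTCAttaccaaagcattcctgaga
RPL13, Fra-2, chr16:89625637-89625683: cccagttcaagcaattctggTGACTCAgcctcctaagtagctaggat
RPL5, Fra-2, chr1:93292510-93292556: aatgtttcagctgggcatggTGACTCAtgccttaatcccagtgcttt
RPL27, Fra-2, chr17:41154233-41154279: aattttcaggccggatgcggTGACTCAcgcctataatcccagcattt

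Of the 77 ribosomal protein genes, the centre of a Fra-1 peak came within 1 kb of a TSS at 1 (1.3%, 0.0329 to 7.02), against 1.92% of all autosomal protein-coding genes. A Fra-2 peak lay within 1 kb of 4 of them (5.19%, 1.43 to 12.8), against 3.76% of all genes. The shares over all genes lie inside both intervals. No ribosomal protein gene had both factors within 1 kb.

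The Fra-1 peak belonged to RPLP0, which encodes the scaffold protein of the ribosomal stalk where elongation factors dock. The gene spans 120634502 to 120639038 on the minus strand of chromosome 12. Its peak, from 120637801 to 120637901, lay in a coding exon 0.767 kb downstream of an annotated start. That start is an internal one: with the outermost start of each gene alone, the count of ribosomal protein genes with Fra-1 inside 1 kb was 0, against 0.958% of all genes. The nearest Fra-2 peak was 29.5 kb from RPLP0.

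The 4 Fra-2 peaks were those of RPS7, RPS29, RPL18 and RPL23A. RPS7, a small subunit protein gene on chromosome 2 from 3622850 to 3628510 on the plus strand, had its peak from 3622701 to 3622801, centred 0.099 kb upstream of the start and outside any protein-coding transcript. RPS29, which encodes a zinc-binding small subunit protein, lies on chromosome 14 from 50037702 to 50065882 on the minus strand, and its peak from 50053151 to 50053251 was 0.103 kb upstream of one start and within an intron of longer transcripts. RPL18, on chromosome 19 from 49118585 to 49122441 on the minus strand, had a peak from 49122601 to 49122701, 0.213 kb upstream. The sphingosine kinase gene SPHK2 starts beside it: its start was nearer, at 0.056 kb, and its untranslated exon held the centre. RPL23A, whose protein sits at the exit of the ribosomal tunnel, lies on chromosome 17 from 27047003 to 27051377 on the plus strand, with a peak from 27046351 to 27046451, 0.602 kb upstream. The nearest Fra-1 peaks were 85.5 kb from RPS7, 284.4 kb from RPS29, 80.6 kb from RPL18 and 520.4 kb from RPL23A.

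**Figure D1:**
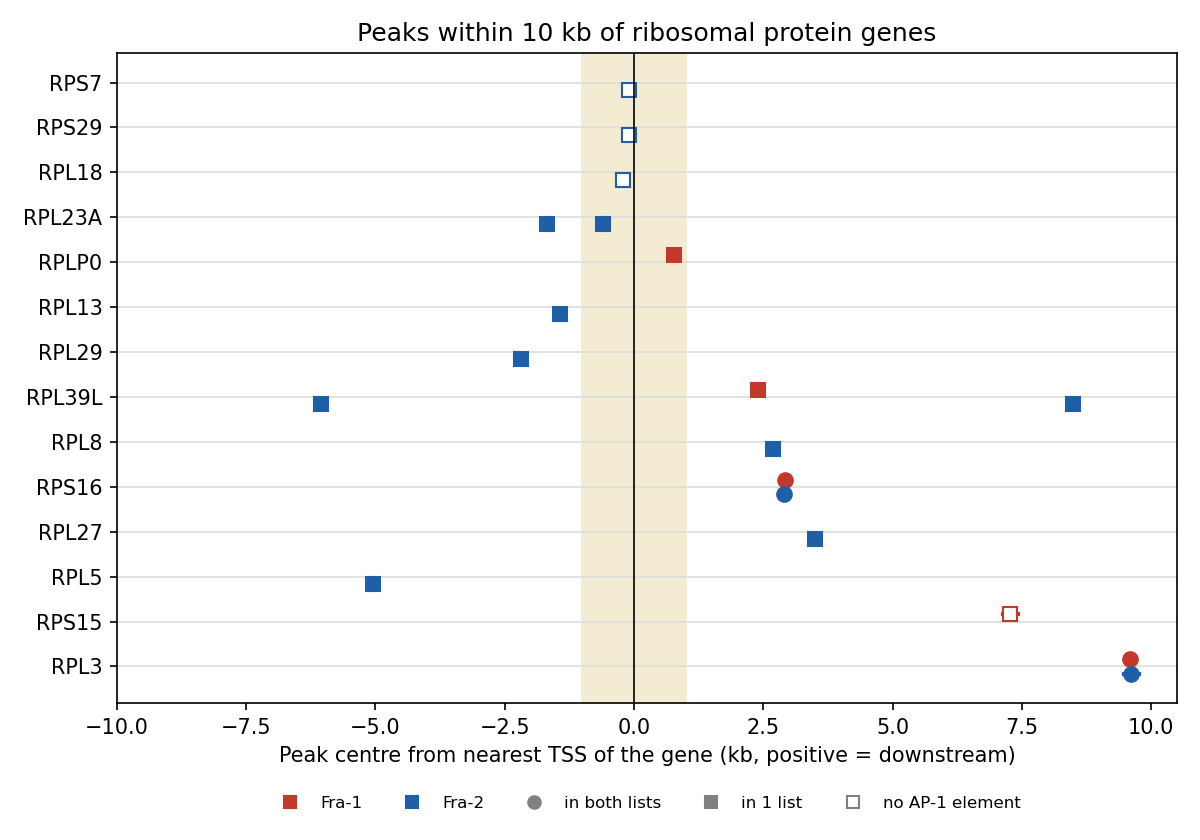
Peaks within 10 kb of ribosomal protein genes. Each row is a gene, the horizontal axis is the distance of the peak centre from the gene's nearest TSS in kb (positive is downstream), red marks are Fra-1 and blue marks Fra-2 peaks, circles are peaks found in both lists, squares peaks in 1 list, open marks have no AP-1 element within 100 bp of the centre, bars give peak width, and the shaded band is 1 kb to each side. All 5 marks in the band are squares, and the circles appear at RPS16 and RPL3 alone.

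The 5 peaks within 1 kb of a start site had features in common that the choice of genes did not use. All 5 were 100 bp wide, the smallest width in the lists, which holds for 27.0% of the 381 Fra-1 peaks and 27.1% of the 733 Fra-2 peaks within 1 kb of any gene. All 5 were found in 1 list only, whereas 83.7% of the Fra-1 and 44.2% of the Fra-2 peaks within 1 kb of any gene overlapped a peak of the other factor. None of the 5 held an AP-1 element between its bounds. Of the peaks within 1 kb of any gene, 66.9% (62.0 to 71.6) of the Fra-1 and 71.8% (68.3 to 75.0) of the Fra-2 ones did. The peaks within 1 kb of any gene were of all widths, so these shares were not compared at equal width. These features were looked at after the peaks had been seen. With 5 peaks they are a description, and no difference was tested. Among peaks at least 200 bp wide, no ribosomal protein gene had a peak of either factor within 1 kb, against 0.984% of all genes for Fra-1 and 1.8% for Fra-2.

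In 2 of the 5 an element lay near the peak but outside it. Counted within 100 bp of the centre, the 1 Fra-1 peak had an element. By that measure 1 of the 4 for Fra-2 did (25.0%, 0.631 to 80.6). Within 1 kb of any gene the share by that measure was 66.9% for Fra-1 and 74.8% for Fra-2. The Fra-2 interval includes the value near any gene. The element of RPLP0 was centred 84 bp from the peak centre.

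Within 10 kb, 5 of the 77 genes carried a Fra-1 peak (6.49%, 2.14 to 14.5), against 9.36% of all genes, and 12 had a Fra-2 peak (15.6%, 8.32 to 25.6), against 15.1%. Both shares are near those of all genes. The genes with Fra-1 were RPLP0, RPL39L, RPS16, RPS15 and RPL3. Those with Fra-2 were the 4 genes with a Fra-2 peak within 1 kb, and RPL13, RPL29, RPL8, RPS16, RPL27, RPL5, RPL39L and RPL3. The last gene inside 10 kb was RPL3 for both factors, at 9.59 kb for Fra-1 and 9.62 kb for Fra-2, and the first outside were RPL28 at 13.0 kb for Fra-1 and RPL38 at 10.3 kb for Fra-2.

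RPS16 and RPL3 were the genes with a peak in both lists at this range. RPS16, a small subunit protein gene on chromosome 19, had a Fra-1 peak from 39921401 to 39921551 and a Fra-2 peak from 39921401 to 39921601, about 2.9 kb downstream of its nearest start and beyond the end of the gene. Its element stood inside both peaks, and the words around it occurred at a median of 1 place. RPL3, whose protein reaches toward the peptidyl transferase centre, had a Fra-1 peak from 39704951 to 39705101 and a Fra-2 peak from 39704851 to 39705151 on chromosome 22, also beyond the gene's end. Its stretch holds 2 elements and words that occur at a median of 1 place. In both cases the ribosomal protein gene held the nearest start of any protein-coding gene.

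RPL39L, a paralogue of RPL39 known for its expression in testis, had a Fra-1 peak in an intron 2.4 kb from a start, and Fra-2 peaks 6.06 kb upstream and 8.5 kb downstream. The Fra-1 peak held a pair of elements. RPL5, which with RPL11 and the small 5S RNA forms a particle that can bind the p53 regulator MDM2, had a Fra-2 peak 5.04 kb upstream, and its nearest Fra-1 peak was 23.4 kb away. RPL29, a large subunit protein gene, had a Fra-2 peak 2.19 kb upstream with an element inside. RPL23A had a second Fra-2 peak 1.68 kb upstream, with an element inside, that lay 0.04 kb from a start of RAB34. RPL13 had a Fra-2 peak 1.44 kb upstream and RPL27 one in an intron 3.5 kb downstream. RPL8 had a Fra-2 peak 2.69 kb away that was nearer to the zinc finger gene ZNF34. The RPS15 peak, in the Fra-1 list alone, was 300 bp wide, had no element and lay 0.6 kb from APC2 and 7.28 kb from RPS15.

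Taken over these peaks, 4 of 5 Fra-1 peaks within 10 kb of a ribosomal protein gene, and 11 of 14 Fra-2 ones, had an element within 100 bp of the centre (80.0% and 78.6%), against 67.8% and 77.4% of those within 10 kb of any gene. Between the peak bounds, 3 of 5 for Fra-1 (14.7 to 94.7%) and 8 of 14 for Fra-2 (28.9 to 82.3%) held an element. Near any gene 66.9% and 74.6% did, which lie inside these intervals. The shares at ribosomal protein genes were thus higher by the first measure and lower by the second. The share found in both lists was 2 of 5 for Fra-1 (40.0%, 5.27 to 85.3) and 2 of 14 for Fra-2 (14.3%, 1.78 to 42.8), against 82.7% and 50.9% for any gene. The interval for Fra-2 does not include the value for any gene, but the peaks were not tested and are few. Of the 11 Fra-2 peaks with an element, 3 (27.3%, 6.02 to 61.0) had an element in recurring sequence, against 4.63% of such peaks near any gene. Recurring here means that the 16-base words around the element occurred at a median of 100 or more places on chromosomes 1 to 22 and X, counting both strands. The only Fra-2 peak within 1 kb of a ribosomal protein gene that had an element within 100 bp was 1 of the 3, and the others were those of RPL13 and RPL27. Whether reads that match several places were kept is not given in the labels. The RPL5 stretch was just below, at 99.5 places. The limit of 100 was set after the sequences had been seen.

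Within 100 kb peaks were common at ribosomal protein genes and over all genes, and for Fra-2 most genes of both groups had a peak. A Fra-1 peak lay in reach of 38 of 77 ribosomal protein genes (49.4%, 37.8 to 61.0), against 44.5% of all genes, and a Fra-2 peak in reach of 52 (67.5%, 55.9 to 77.8), against 58.1%. Both factors were near 36 genes (46.8%, 35.3 to 58.5), against 41.7% of all genes. Fra-1 alone was near 2 (2.6%), against 2.73%, and these were RPS15 and RPS23. Fra-2 alone was near 16 (20.8%), against 16.3%. No peak of either factor was near 23 (29.9%), against 39.2% of all genes. All of these background values lie inside the intervals of the ribosomal protein genes.

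The median distance from a ribosomal protein gene to the nearest Fra-1 peak was 104.7 kb (quartiles 47.4 and 228.7), against 123.6 kb over all genes (41.2 and 292.1). For Fra-2 it was 60.8 kb (17.0 and 125.9), against 73.5 kb (22.5 and 187.1). RPL31 was the last gene within 100 kb for both factors, at 99.2 kb, and RPLP1 at 104.7 kb from Fra-1 and RPL6 at 105.6 kb from Fra-2 were the next.

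**Figure D2:**
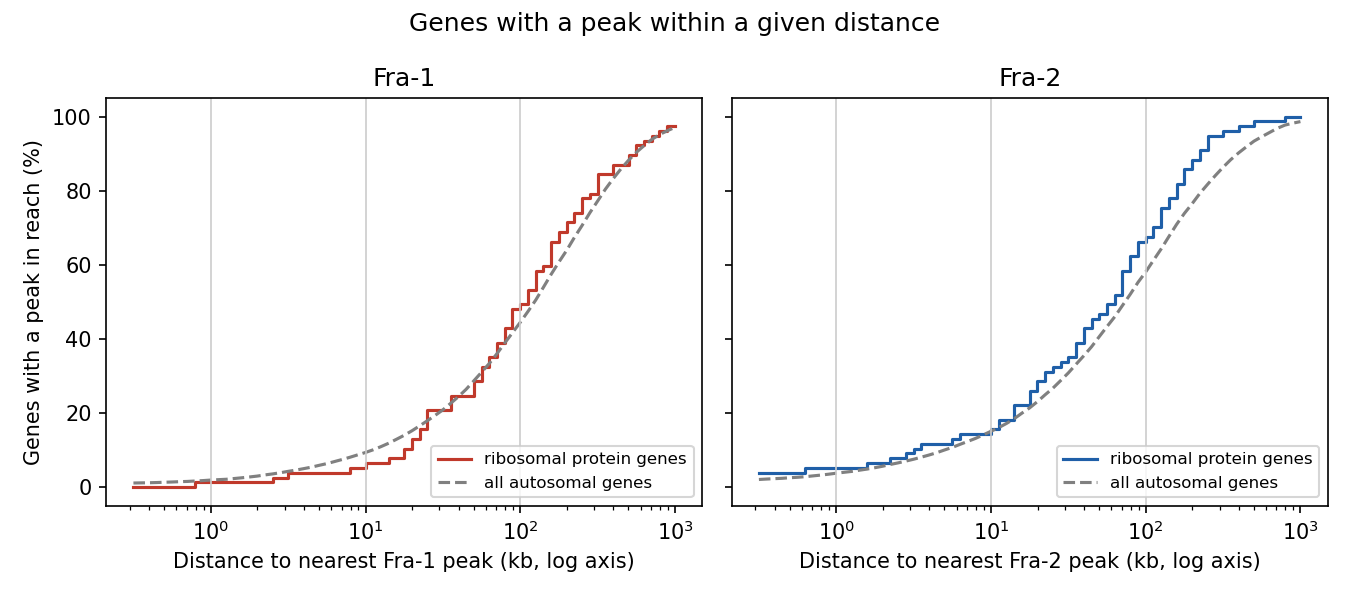
Share of genes (vertical axis, %) with a peak centre within a given distance of a TSS (horizontal axis, kb, logarithmic) for Fra-1 on the left and Fra-2 on the right. Coloured steps are the 77 ribosomal protein genes, dashed grey lines all 18893 autosomal protein-coding genes, and vertical lines stand at 1, 10 and 100 kb. At 10 kb the Fra-1 steps reach 6.49% against 9.36% for all genes, and at 100 kb the Fra-2 steps reach 67.5% against 58.1%.

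Members without any peak within 100 kb included RPL6, RPL9, RPL13A, RPL17, RPL22, RPL26, RPL34, RPL35A, RPL36 and RPL37 of the large subunit and RPS3A, RPS6, RPS9, RPS10, RPS12, RPS15A, RPS19, RPS20, RPS27 and RPSA of the small subunit. Among them are RPS6, the phosphorylated target of S6 kinases, and RPS19, the gene first tied to Diamond-Blackfan anaemia, an inherited failure of red cell production.

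Few of the peaks within 100 kb were closest to the ribosomal protein gene itself. Of 79 Fra-1 peaks within 100 kb of a member, 5 (6.33%) had a member as the nearest protein-coding TSS, and of 121 Fra-2 peaks 17 (14.0%) did. Of these, 4 of the 5 and 11 of the 17 lay within 10 kb of a member. The matching shares of peaks in reach of other genes are not given here. When each peak counted only for the gene with the nearest start, 5 of 77 ribosomal protein genes had a Fra-1 peak (6.49%, 2.14 to 14.5), against 19.2% of all genes, and 15 had a Fra-2 peak (19.5%, 11.3 to 30.1), against 25.7%. For Fra-1 the value over all genes was above the interval. Ribosomal protein genes had a median of 4 other genes within 100 kb, against 3 over all genes. The part of gene density in these counts was not tested.

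Of the members with the most peaks, RPL27A, RPS14, RPL10A, RPS27L and RPL8 had none for which their own start was the nearest. RPL27A had 6 Fra-1 and 5 Fra-2 peaks, nearest to DENND2B, which encodes an activator of Rab GTPases, STK33 and TRIM66. RPS14, a small subunit gene lost in a myelodysplastic syndrome, had 5 Fra-1 and 7 Fra-2 peaks, and NDST1, a gene of heparan sulfate synthesis, had the nearest start for all of them. All 5 Fra-1 peaks there overlapped Fra-2 peaks, and the widest pair, 400 bp in the Fra-1 list and 450 bp in the Fra-2 list, lay 23.5 kb upstream of RPS14. RPL10A had 5 peaks of each factor, nearest to TEAD3, PPARD and FANCE. RPLP0 had 4 Fra-1 peaks and 2 of Fra-2, of which the Fra-1 peak in its coding exon was nearest to RPLP0 itself and both of the Fra-2 peaks to the focal adhesion gene PXN. RPS27L, a paralogue of RPS27, had 4 of each, nearest to genes such as LACTB and APH1B. RPL13 and RPL8 had 3 Fra-1 and 5 Fra-2 peaks, and 1 of the Fra-2 peaks of RPL13 was nearest to RPL13 itself. Some neighbours with smaller counts, named after the values were seen, were LAMA5, a laminin gene, with 3 Fra-1 and 4 Fra-2 peaks in reach of RPS21, and ANGPTL4 and CERS4 with 3 and 4 in reach of RPS28. The cytokine gene IL11 was nearest to the peak of each factor in reach of RPL28. The median number was 0 Fra-1 peaks and 1 Fra-2 peak per ribosomal protein gene, as over all genes.

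**Figure D3:**
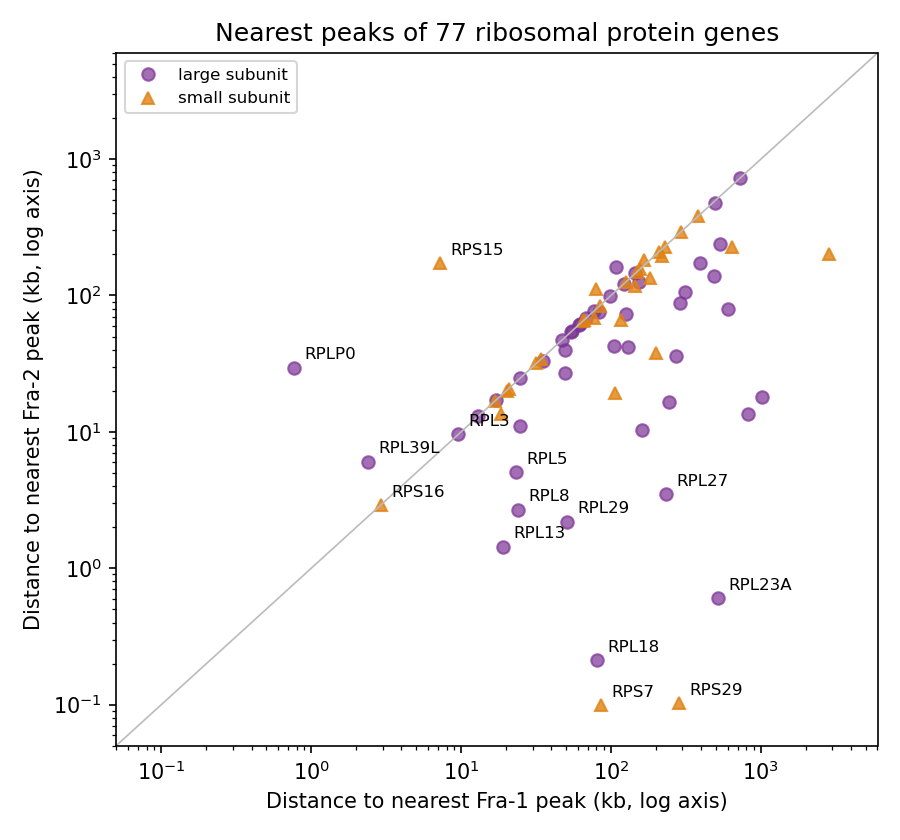
Distance in kb of each of the 77 ribosomal protein genes from its nearest Fra-1 peak (horizontal, logarithmic) and nearest Fra-2 peak (vertical, logarithmic). Purple circles are large and orange triangles small subunit genes, and on the grey line both distances are equal. Many genes lie along the line, while RPS7, RPS29, RPL18 and RPL23A lie far below it with Fra-2 peaks within 1 kb, and RPLP0 and RPS15 lie above it.

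The peaks in reach resembled others near genes in their share with an AP-1 element. Of 79 Fra-1 peaks, 51 had an AP-1 element inside 100 bp of their centre (64.6%, 53.0 to 75.0), against 65.0% of Fra-1 peaks within 100 kb of any gene. For Fra-2 it was 94 of 121 (77.7%, 69.2 to 84.8), against 75.3%. Of the Fra-1 peaks 57 (72.2%, 60.9 to 81.7) overlapped a Fra-2 peak, against 80.8% near any gene, and 57 of the Fra-2 peaks (47.1%, 38.0 to 56.4) overlapped a Fra-1 peak, against 57.0%. For Fra-2 the value near any gene was above the interval. Introns held 57.0% of the Fra-1 and 57.9% of the Fra-2 peaks, and 36.7% and 37.2% were intergenic. The same shares for other peaks are not given here. Repeat-like regions, defined by assembly gaps and recurring words, held 5 of the Fra-1 peaks in reach and 6 of the Fra-2 ones.

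Over all genes the share with a Fra-2 peak was 51.6% in the sparsest and 69.2% in the densest surroundings, and the share with a Fra-1 peak was 43.5% and 48.2%, so density was set beside the counts. Of the ribosomal protein genes, 21 (27.3%) had 8 or more other genes within 100 kb, against 16.2% of all genes. In that densest class 10 of 21 ribosomal protein genes had Fra-1 in that range (47.6%), against 48.2% of all genes of the class, and 14 had a Fra-2 peak (66.7%), against 69.2%. In the class with 5 to 7 neighbours the shares were 53.8% against 43.5% for Fra-1 and 76.9% against 59.4% for Fra-2. With 3 to 4 neighbours they were 57.1% against 45.3% for Fra-1 and 71.4% against 58.9% for Fra-2. With 2 neighbours 6 of 15 genes had a Fra-1 peak, against 42.0% of all genes, and 9 of 15 a Fra-2 peak, against 54.9%. In the class with 0 to 1 neighbours 3 of 7 genes had a Fra-1 peak (42.9% against 43.5%) and 4 a Fra-2 peak (57.1% against 51.6%). Members also had more annotated start sites, with a median of 5 against 3 over all genes; the part of this in the counts was not tested.

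**Figure D4:**
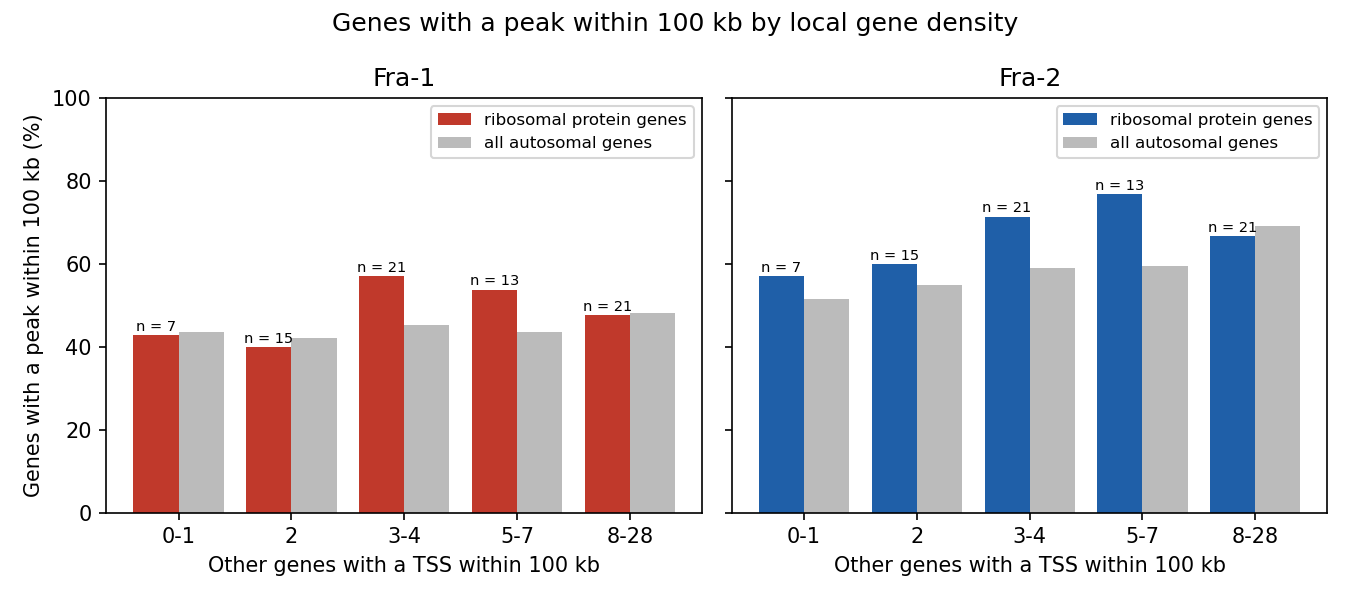
Share of genes with a Fra-1 peak (left) or a Fra-2 peak (right) within 100 kb of a TSS (vertical axis, %) by the number of other protein-coding genes with a TSS within 100 kb (horizontal axis). Coloured bars are ribosomal protein genes, with their number above, and grey bars all autosomal protein-coding genes. In the densest class the coloured bars stand at 47.6% and 66.7%, below the grey bars at 48.2% and 69.2%.

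The subunits differed in their counts for Fra-2. A Fra-2 peak lay within 100 kb of 36 of 46 large subunit genes (78.3%, 63.6 to 89.1) and of 16 of 31 small subunit genes (51.6%, 33.1 to 69.8), against 58.1% of all genes. For Fra-1 the counts were 24 of 46 (52.2%) and 14 of 31 (45.2%), against 44.5% of all genes. For the large subunit the Fra-2 value over all genes was below the interval. The difference between the subunits was not tested, and both had a median of 4 other genes within 100 kb. Within 10 kb, 9 large (19.6%) and 3 small subunit genes (9.68%) had a Fra-2 peak, against 15.1% of all genes, and 3 (6.52%) and 2 (6.45%) a Fra-1 peak, against 9.36%. All 4 intervals at 10 kb include the value over all genes. All 3 stalk genes, RPLP0, RPLP1 and RPLP2, had a Fra-2 peak within 100 kb, and 2 of them a Fra-1 peak, against 58.1% and 44.5% of all genes. Of the 4 paralogues, RPL3L, RPL10L, RPL39L and RPS27L, whose expression is tissue-restricted or inducible, 4 had a Fra-2 and 3 a Fra-1 peak in that range, against the same shares.

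Of 19 genes mutated in Diamond-Blackfan anaemia, 3 had a Fra-2 peak within 1 kb (RPS7, RPS29 and RPL18; 15.8%, 3.38 to 39.6), against 3.76% of all genes, and 5 within 10 kb (26.3%, 9.15 to 51.2), against 15.1% of all genes. None had a Fra-1 peak within 10 kb, against 9.36% of all genes, and 7 (36.8%) had one within 100 kb, against 44.5%. The list is a subset of the ribosomal protein genes and its counts are a description.

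Some promoter motifs were more common in the family than over all promoters, while others were not, and no difference was tested. In the 300 bases from 250 before to 50 after the canonical start, 1 of 77 ribosomal protein promoters held an AP-1 element (1.3%, 0.0329 to 7.02), that of RPL24, against 3.51% of 18644 promoters of the same length. RPL24 had no peak within 10 kb. The start base was a C followed by 4 pyrimidines in 55 of 77 (71.4%), against 4.61% of all promoters. The letters CCGGAAG, a core bound by ETS factors, occurred on either strand in 26 (33.8%, 23.4 to 45.4), against 14.2%, and AAGATGG, a core of YY1 sites, in 14 (18.2%, 10.3 to 28.6), against 6.39%. The cyclic AMP response element TGACGTCA was in 4 promoters (5.19%), of RPL3, RPL18, RPLP2 and RPS29, against 2.75%, and TATAAA was in 7 (9.09%), against 9.6%. The E-box CACGTG was in 5 (6.49%), against 8.69%. These are matches of letters and not evidence of a bound factor, and none of the other motifs contains the AP-1 element.

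Other genes of ribosome production and translation were counted the same way, against 44.5% of all genes with a Fra-1 peak and 58.1% with a Fra-2 peak within 100 kb, and no difference was tested. Of 78 mitochondrial ribosomal protein genes, which serve the separate ribosome of mitochondria, 36 had a Fra-1 peak within 100 kb (46.2%) and 56 a Fra-2 peak (71.8%, 60.5 to 81.4), with 0 and 2 within 1 kb. Their Fra-2 interval, too, lay above the 58.1% of all genes. Of 16 other TOP genes, such as those of translation elongation factors, 9 (56.2%) and 13 (81.2%) had a Fra-1 and a Fra-2 peak within 100 kb. None had one within 1 kb, against the same 1.92% and 3.76% of all genes. Among 16 genes of ribosome biogenesis the counts were 6 (37.5%) and 9 (56.2%). NOLC1, a nucleolar chaperone, had a Fra-2 peak 0.207 kb from a start, and UBTF, an activator of RNA polymerase I, had a peak of each factor 2.4 kb away. Among 10 regulators of TOP messages the counts were 7 and 7 (70.0% each). LARP1, which binds the TOP motif itself, had a peak of each factor 0.03 kb from a start, and MTOR had its nearest Fra-1 peak 751.8 kb and its nearest Fra-2 peak 430.7 kb away.

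**Figure D5:**
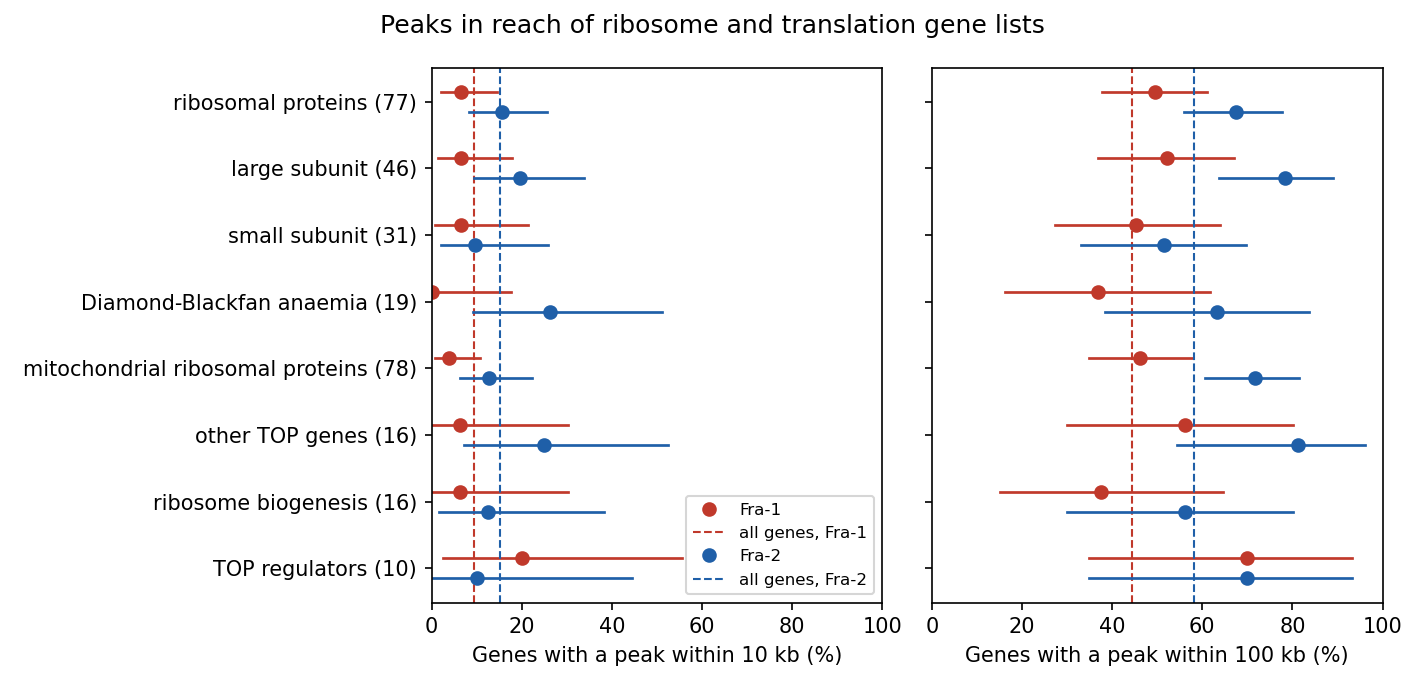
Share of genes with a peak within 10 kb (left) and 100 kb (right) for ribosomal protein genes, their subgroups and other lists of the translation apparatus, with the number of genes in brackets. Red points are Fra-1 and blue points Fra-2, bars are 95% exact binomial intervals, and dashed lines give the share of all autosomal protein-coding genes. The dashed lines cross the bars of the 77 ribosomal protein genes for both factors at both distances, while at 100 kb the Fra-2 bars of the large subunit and of mitochondrial ribosomal proteins lie above theirs.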

How the data were processed

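Fra-1 and Fra-2 ChIP-seq in MDA-MB-231 cells was analysed from 1 peak list per antibody. The submitters' processing notes name Bowtie2 and hg19, and how peaks were called, at what threshold, and whether replicates or input entered is not given in the sources used here. As deposited, the lists hold other values than counts or scores: a start and an end per peak, placed by the authors on 50 bp steps. Peaks were set against GENCODE 44 lifted to GRCh37, the assembly behind hg19, with every start of a protein-coding transcript as a TSS and distance taken from the peak centre. Chromosomes X, Y and M were left out. AP-1 elements were sought within 100 bp of centres, and peaks sharing at least 1 bp counted as found in both lists. Repeat-like regions lay within 1 Mb of assembly gaps of at least 1 Mb, or had over 20% recurring 10-base words within 1000 bp. Work was done in scipy 1.17.1, pysam 0.24.0, samtools 1.23.1, pandas 2.3.3, matplotlib 3.10.9, numpy 2.4.6 and Python 3.11.15, and distance and motif searches were tested on simulated data. The members and lists were chosen with earlier results of these data known, and the measures of word recurrence and of elements between peak bounds were added after the peaks were seen. Genes with a peak within 1 kb or 10 kb were named, then, of the rest, the 4 with the most peaks of each factor within 100 kb, and those with none, except that some names and a sequence are not reported here. Read depth is unknown, and the intervals reflect the number of genes or peaks counted and no other error. Other widths, regions, start sites, distances, gene sets and motif windows were tried as alternatives.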

Additional observations from a re-analysis of the deposited data

How the results depend on the processing

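Of 74 alternative values 57 stayed within 1.5 times the count given or within the interval of the share, and 17 did not. Counts and shares have no sign, so none could reverse. Whether they lay above or below all genes was not part of this measure and changed in some settings. With peaks at least 200 bp wide, the counts within 1 kb were 0 for Fra-1 and 0 for Fra-2, those within 10 kb were 1 and 4, and both factors were within 100 kb of 23 genes. All genes were then at 0.984% and 1.8% within 1 kb, 4.94% and 8.13% within 10 kb and 24.6% for both factors. With the outermost TSS alone, Fra-1 was within 1 kb of 0 and within 10 kb of 3 genes, against 0.958% and 6.79% of all genes. With each peak given to its nearest TSS, the counts within 100 kb were 5 for Fra-1, 15 for Fra-2 and 3 for both factors. These shares of 6.49%, 19.5% and 3.9% were below the 19.2%, 25.7% and 17.3% of all genes. In the main setting they were above, at 49.4%, 67.5% and 46.8% against 44.5%, 58.1% and 41.7%. With the Fra-2 list shortened to the length of the Fra-1 list by keeping its widest peaks, Fra-2 was within 1 kb of 0 and within 10 kb of 7 genes (9.09%), against 2.91% and 12.4% of all genes; this setting leaves Fra-1 as it is. With a window of 50 bp to each side, 45.6% of the Fra-1 peaks in reach and 61.2% of the Fra-2 ones had an AP-1 element. With 100 bp it was in 80.0% of the Fra-1 peaks within 10 kb and in 86.2% of the Fra-2 peaks at least 200 bp wide, and with any base at its centre in 86.0% of Fra-2 peaks. The stricter width leaves fewer peaks to count, for members and for all genes. The cause of the changes in these settings was not tested. Merging members with starts within 200 kb gave 74 loci. No paired analysis was possible because there is 1 list per antibody. Unknown depth limits all counts, and a gene without a peak is not shown to be unbound.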

Other observations

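Of the X-linked ribosomal protein genes, left out of the members by chromosome, RPL10 had its nearest peak of both factors 28.6 kb away. RPS4X was 343.5 kb and RPL39 750.2 kb from the nearest peak of either factor, and RPL36A was over 2 Mb from both.

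Ribosomal protein genes have left many processed pseudogenes, which are copies of their messages pasted back into the genome. Of 1498 such autosomal pseudogenes, 5 overlapped a Fra-1 peak (0.334%, 0.108 to 0.777), against 0.34% of 8229 other processed pseudogenes. For Fra-2 it was 6 (0.401%, 0.147 to 0.87), against 0.413%. RPL13AP7, RPL23AP49, RPS10P7, RPS4XP2 and RPSAP52 were overlapped by both factors and RPS13P4 by Fra-2 alone. These 6 were named after their values were seen.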
